A study of Drosophila pseudoobscura with 29 samples.

Results

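In embryos of Drosophila pseudoobscura, 150 genes were chosen by a ratio of RNA levels, not by the levels of each phase. Their RNA was higher in freshly laid eggs, and again from 24 h on, close to hatching, than from 19 to 24 h of development. They were selected on measured values: among the 5964 of 8466 genes that reached 25 RPM (read counts scaled to a common library total of 1000000) in any library but the one at 27-28 h, the mean of the 3 libraries at 0-3 h (the egg mean), the mean of the 4 libraries at 24-27 h and 28-29 h (the near-hatching mean) and the mean of the 5 libraries at 19-24 h (the trough mean) were taken. The score of a gene was the smaller of the egg and near-hatching means divided by the trough mean plus 1 RPM, and the 150 highest scores were kept. The shape with an early high, a trough and a late return is therefore how the genes were found and is described below without a test. The hours 3-19 entered only through the 25 RPM minimum, which 1 member, FBgn0030054, reached only there (32.6 RPM at 5-6 h). The promoters and the 27-28 h library played no part in the choice.

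A fly egg is laid with a store of messenger RNA that the mother made in her ovary. This store drives the first divisions, and much of it is destroyed when the embryo begins to transcribe its own genome. Some genes of the store are transcribed again by the embryo, some early in tissue formation and others only when organs are mature and the larva is about to hatch. The 5′ end of an RNA shows which promoter made it, so 5′-end sequencing can follow the promoters of such genes through development.

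The series held 29 libraries, each covering a single 1-hour window of age after egg laying (the first 0-1 h, the last 28-29 h), all from whole staged wild-type embryos of the strain used for the reference genome, untreated and collected in population cages. Promoter activity was measured by RAMPAGE, which sequences cDNA that is complete at its 5′ end and groups neighbouring start positions into transcription start site clusters (TSCs), each standing for 1 promoter. Every window was measured once, so no single window had a replicate, and the labels give hours but do not record hatching itself. Recovered TSC reads per library ran from 723775 at 25-26 h to 11862896 at 0-1 h, apart from the 27-28 h library, which held 1011. In whole embryos, fewer cells of a type and less RNA per cell cannot be told apart, and RPM is a share of the sequenced RNA, not an amount per embryo.

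The gene identifiers of the expression table are not paired with gene names in the sources used here, so the members are given by identifier, promoter position and time course, and marker genes of eggs or of larval tissues could not be looked up. Of the 150 identifiers, FBgn0001223 and FBgn0001228 had identical values in every library, which leaves 149 distinct profiles. FBgn0263005 and FBgn0030449 had equal or close values in every library, with a trough mean of 2.34 RPM in each. Their leading TSC had the same position (scaffold XL_group1a, 7940627 to 7940875, minus strand), so they are not independent members.

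The members were well expressed in eggs. Their egg mean had a median of 161 RPM, with quartiles at 77.7 and 368 RPM and a range from 18.2 to 4235 RPM, while the other 5814 genes past the 25 RPM minimum had a median of 43.1 RPM. In the trough the members' median was 20.5 RPM (quartiles 9.65 and 49.0, highest 308 RPM), below the 34.6 RPM of the other genes. Near hatching it was 68.5 RPM (quartiles 31.2 and 159, lowest 2.70 and highest 1008 RPM), against 33.3 RPM for the others. These levels follow from the choice of the genes. The return was incomplete for most: the near-hatching mean had a median of 47.5% of the egg mean (quartiles 33.0 and 59.7%), it was below the egg mean in 144 members and above it in 6. All 4 near-hatching libraries lay above all 5 trough libraries in 134 members, and all 3 egg libraries did so in 142. Both counts use the libraries of the score, follow largely from the choice and were not made over all genes. The lowest near-hatching library divided by the highest trough library plus 1 RPM had a median of 1.37 over the members. Over the other genes that median was 0.476.

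The score ran from 2.51 to 5.06 with a median of 2.99, and there was no gap at its lower end. The last members inside, FBgn0264561, FBgn0034354 and FBgn0029094, scored 2.53, 2.52 and 2.51, and the first 3 genes outside scored 2.51, 2.50 and 2.49. The list is the upper end of a continuous range, with 375 genes at a score of at least 2.

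FBgn0033757 had the highest score. Its leading promoter, meaning the TSC with most of its egg reads, lay on the plus strand of chromosome 3 at 12394203 to 12394362 (160 bp, FlyBase r2.9 genome). Its level was 1366, 1533 and 1619 RPM in the 3 egg libraries, then 709, 241 and 174 RPM at 3-4, 4-5 and 5-6 h, and it stayed between 89.1 and 269 RPM from 6 to 19 h. In the 5 trough libraries it was 78.6, 95.6, 78.8, 18.6 and 50.3 RPM, and near hatching it was 202, 428, 387 and 306 RPM. Most of its early loss was over by 5 h, and the late libraries all lay above every trough library but far below the egg libraries.

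FBgn0030864, with the next highest score, followed a slower course from a promoter on the minus strand of scaffold XL_group1a, at 1583903 to 1584040. It had 120, 106 and 173 RPM in the egg libraries and its highest value, 205 RPM, at 3-4 h. It then declined to 28.5 RPM at 18-19 h and reached 18.7, 27.3, 21.6, 22.8 and 2.70 RPM in the trough. The near-hatching values of 61.7, 98.9, 71.3 and 159 RPM included 1 library inside the range of the egg libraries. Its near-hatching mean was 73.4% of its egg mean.

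FBgn0016070 had the highest egg, trough and near-hatching means of all members. Its leading promoter spanned 356 bp on the minus strand of scaffold XR_group5 (427693 to 428048) and held 84.3% of its level summed over all its TSCs in eggs. The 3 egg libraries had 3837, 4333 and 4535 RPM, the trough libraries 439, 294, 128, 401 and 279 RPM, and the near-hatching libraries 1024, 1064, 1339 and 604 RPM. The last near-hatching library was the lowest of the 4 but still above every trough library.

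Some members were scarce. In 20 of the 150 the trough mean was under 5 RPM, and over all members the 5 trough libraries together held a median of 134 reads per gene. FBgn0014427 had no read in any trough library. It had 51.2, 40.6 and 6.22 RPM in eggs and 1.13, 2.75, 3.55 and 3.35 RPM near hatching, which rested on 6, 2, 10 and 3 reads. Pooled over libraries, its 21 near-hatching reads gave 2.16 RPM. A count of 0 over the trough libraries allows up to 3 reads in all, or 0.414 RPM. Its near-hatching level, taken at the observed reads, was 5.21 times that limit. The counting error of the 21 reads is not included in this value.

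**Figure D1:**
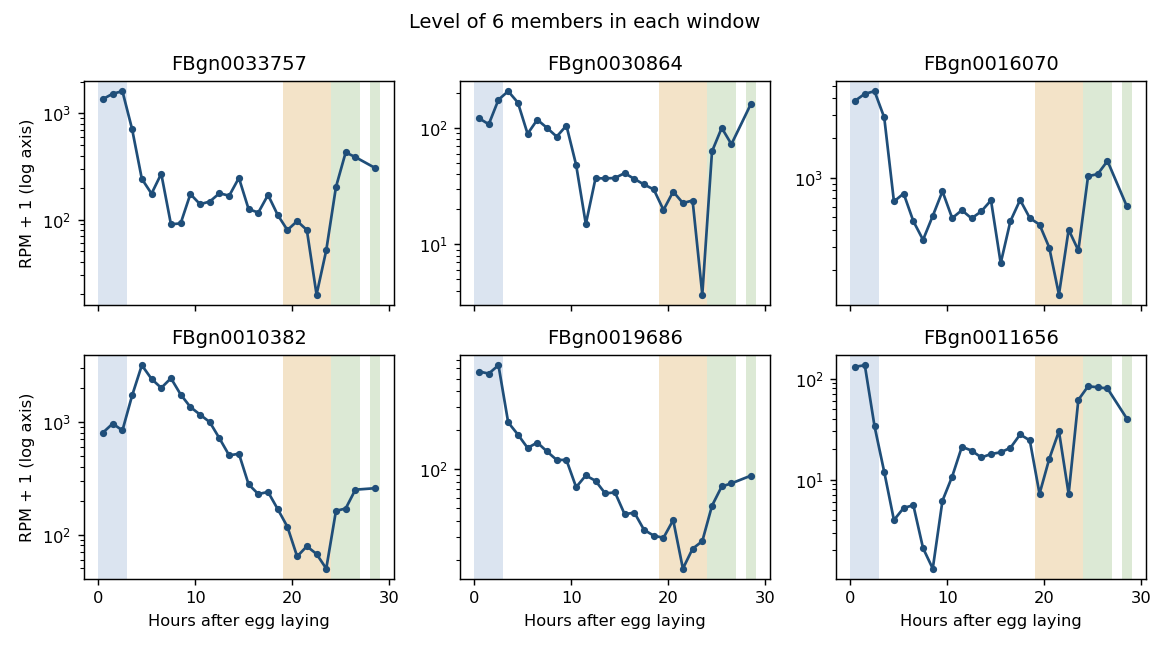
RPM + 1 on a log axis against hours after egg laying for 6 members, 1 point per library, with the egg, trough and near-hatching windows shaded blue, tan and green and the 27-28 h library left out. FBgn0033757, FBgn0016070 and FBgn0019686 dropped within a few hours of the egg windows, FBgn0010382 first rose to 3164 RPM, and FBgn0011656 was lowest at 8-9 h.

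The members did not lose their RNA together. Set against each gene's own egg mean, their median level was 98.1, 108 and 98.7% in the 3 egg windows and still 101% at 3-4 h. It was 77.0 and 55.5% in the next windows and 39.1% at 7-8 h. By 13-14 h it had come down to 28.9%, and by 18-19 h to 19.6%. The decline of the median was spread over many windows but uneven, with 64.7% at 6-7 h and 51.0% at 9-10 h. The lowest median, 10.2%, came at 22-23 h. For comparison, 42 genes that were not members, picked from the same data because their egg mean was at least 50 RPM and their mean at 9-19 h was under 5% of it, were at 14.9% of their egg mean at 3-4 h and 4.95% at 4-5 h. This contrast is a description, since both sets were picked on these values.

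Between the last trough library and the first near-hatching library, where the choice itself sets the boundary, the members' median went from 10.9% of the egg mean at 23-24 h to 31.9, 48.1, 49.5 and 58.9% in the 4 near-hatching libraries. The ratio of the 24-25 h to the 23-24 h value had a median of 2.52 over the members and 1.02 over all 5964 genes past the minimum, a difference that follows from the choice. In the same 4 late libraries the 42 genes of the comparison set had medians between 0.939 and 2.80% of their egg mean, next to 0.80 to 1.93% in the trough libraries. The 1 gene that met the criteria of this set but was a member had been taken out of it. On the log2 scale the median ratio of the near-hatching to the trough mean was 1.63 for the members and 0.01 for all genes, and between 1.51 and 1.58 for the members under 3 other scalings of the libraries, with the median of all genes moving to between -0.11 and -0.03.

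**Figure D2:**
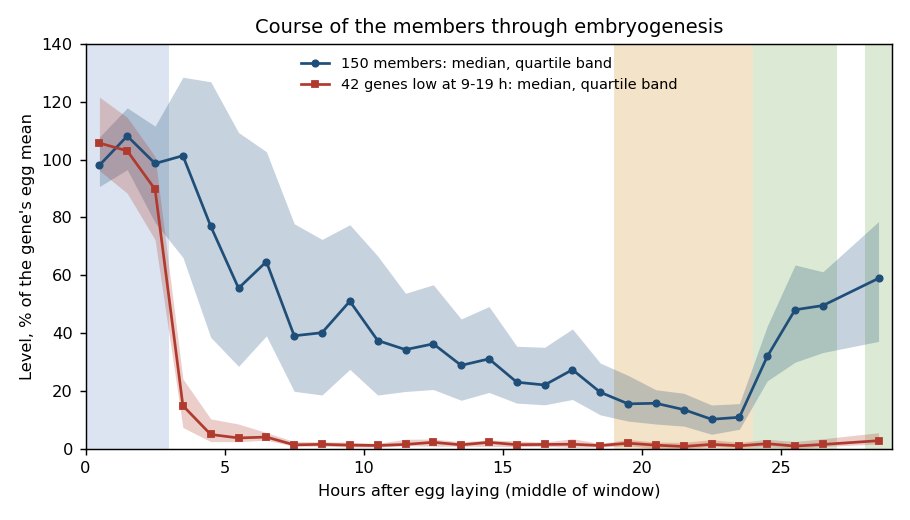
Median level in each library, as a percentage of each gene's own egg mean, for the 150 members (blue) and for 42 genes with under 5% of their egg mean at 9-19 h (red), with bands from the lower to the upper quartile and the egg, trough and near-hatching windows shaded blue, tan and green. The median of the members came down unevenly over many windows to 10.2% at 22-23 h and stood at 58.9% at 28-29 h. That of the comparison genes was at 4.95% by 4-5 h and at 2.80% at 28-29 h.

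The members' reads as a share of all gene reads traced the same curve. The share was 5.48, 5.83 and 5.30% in the 3 egg libraries. It was lowest at 22-23 h, with 0.644%, and near hatching reached 1.82, 2.55, 2.62 and 2.87% in the 4 near-hatching libraries. The lowest late share was above every trough share, the highest of which was 1.01% at 19-20 h.

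The 27-28 h library, which the choice had left out, lies between the last of these windows but holds few reads. There 14 of 795 gene reads came from members, a share of 1.76% (exact binomial 95% interval 0.966 to 2.94%), spread over 12 members with at most 3 reads each. The interval covers the shares of both neighbouring libraries, 2.62% at 26-27 h and 2.87% at 28-29 h, and also those at 19-20 and 20-21 h, and it lies above those from 21 to 24 h. The members' late level in that hour could not be told more finely at this depth.

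The order of the late windows was the following. In 101 of the 150 the value at 28-29 h was at least 1.5 times that at 24-25 h (both plus 1 RPM), where 26.6% of the 5964 genes past the minimum did so. Only the mean of the 4 windows entered the choice, so their order was not set directly, although a single high window helps a gene to be chosen. A low trough just before a high late mean also favours a low first window and higher later ones. The shares of all genes, which were not chosen for a late return, are therefore no neutral reference for this order. The 24-25 h library was the lowest of the 4 in 119 members, beside 33.5% of those genes, and the 28-29 h library the highest in 88, beside 36%. In 45 members, against 8.13% of those genes, each of the 4 values exceeded the one before, so most members did not climb at every step. The opposite, 24-25 h at least 1.5 times 28-29 h, held for 4 members, FBgn0263005, FBgn0030449, FBgn0016070 and FBgn0011656, and for 20% of the genes past the minimum. Of these, FBgn0263005 and FBgn0030449 share a promoter position and are not independent. These counts use the late libraries that entered the score and are descriptions. With 1 library per window this order had no replicate check.

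FBgn0032354 had the highest near-hatching level for its egg level, 130% of the egg mean, and was picked for description after its values were seen. Its only promoter lay on the plus strand of scaffold 4_group3 (6544858 to 6544903, 46 bp). It had 59.8, 68.4 and 79.6 RPM in the egg libraries, 18.7, 20.5, 33.4, 15.9 and 20.7 RPM in the trough, and 32.5, 143, 67.4 and 116 RPM near hatching. The first late library overlapped the trough range and 2 of the others were above all egg libraries.

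The 16 libraries from 3 to 19 h, which did not enter the score, held each member's course between the egg and the trough. A straight line of log2(RPM + 1) on the hour was fitted to every gene with limma, with Benjamini-Hochberg adjustment over 8101 genes and a threshold of 0.05, the error being the scatter of libraries around the line. Of the 150 members 107 fell (71.3%), where 23.2% of all genes tested fell. Only 3 members rose, where 34.9% of all genes rose, and 40 passed in neither direction. A member had to be lower at 19-24 h than in the egg, so a decline somewhere in between was largely fixed by the choice, and the count is not independent evidence of a direction. What the choice left free was when the decline came. Its speed was free only in part, because the score set a least size for the fall. The egg mean divided by the trough mean plus 1 RPM was at least 2.55 and had a median of 6.84 over the members. The difference in slope from all genes therefore follows in part from the choice. The slopes of the members that fell had a median of -0.15 log2 units per hour and ranged from -0.66 to -0.05, and over all members the median slope was -0.12, against 0.02 for all genes. Without the libraries at 3-6 h, 82 members fell, where 25% of all genes tested did.

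**Figure D3:**
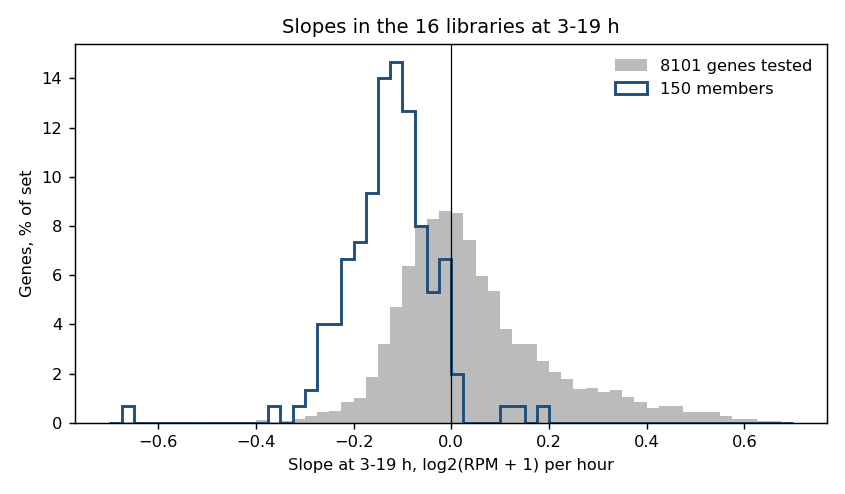
Distribution of the slope of log2(RPM + 1) per hour at 3-19 h for the 8101 genes tested (grey) and the 150 members (blue outline), each as a percentage of its set. The members centred on -0.12 and all genes on 0.02, and 3 members that passed the test lay to the right, between 0.11 and 0.20.

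FBgn0010382 and FBgn0019686 had the smallest p-values among the members that fell. FBgn0010382, whose leading promoter lay on the minus strand of scaffold 4_group4 (4525753 to 4525951), was higher after the egg than in it. It had 800, 960 and 835 RPM in the egg libraries, reached 3164 RPM at 4-5 h, still had 1740 RPM at 8-9 h and 501.6 RPM at 13-14 h, and ended at 167 RPM at 18-19 h. Its slope was -0.28 ± 0.02 (SE) log2 units per hour (limma, adjusted p = 5.1e-09). It had 116, 62.9, 77.7, 66.2 and 48.8 RPM in the trough and 161, 169, 249 and 256 RPM near hatching, so that the late groups did not overlap.

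FBgn0019686 declined without such a peak, from a single promoter of 100 bp on the same scaffold (3603464 to 3603563, minus strand). The egg libraries had 566, 545 and 633 RPM, the value at 3-4 h was 229 RPM, and it was 117 RPM at 9-10 h and 29.8 RPM at 18-19 h, a slope of -0.18 ± 0.01 log2 units per hour (limma, adjusted p = 5.8e-09). The trough libraries had 28.7, 39.6, 16.2, 23.4 and 27.0 RPM and the near-hatching libraries 51.4, 72.8, 77.0 and 88.3 RPM. Each late library was above all of the trough.

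Of the genes with the highest score and the highest egg level, FBgn0030864 fell by 0.18 log2 units per hour (limma, adjusted p = 6.7e-05). FBgn0033757 and FBgn0016070 both had a slope of -0.07 that missed the threshold (limma, adjusted p = 0.070 and 0.083). In RPM, their largest steps came between the 2-3 h and 4-5 h libraries. A fit to recovered reads with edgeR's quasi-likelihood test and the same adjustment passed both, at 0.015 and 0.021, whereas without the libraries at 3-6 h limma gave slopes of -0.01 and 0.00.

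Of the 3 members that rose at 3-19 h, FBgn0011656 and FBgn0027579 lost their egg RNA early and regained some of it in mid-embryogenesis. FBgn0011656 had 130, 134 and 32.8 RPM in the egg libraries, 2.98 RPM at 4-5 h and 0.318 RPM at 8-9 h. It then had 20.1 RPM at 11-12 h and 27.0 RPM at 17-18 h, a slope of 0.20 ± 0.05 log2 units per hour (limma, adjusted p = 0.0016). Its trough values of 6.24, 15.0, 29.1, 6.20 and 60.5 RPM overlapped the egg values, since the 23-24 h library was already high, and near hatching it had 82.8, 81.0, 78.7 and 39.1 RPM.

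FBgn0027579 had 79.7, 87.7 and 72.8 RPM in eggs, 9.47 RPM at 7-8 h and 55.6 RPM at 11-12 h, with a slope of 0.11 ± 0.03 (limma, adjusted p = 0.011). It had 32.4, 15.0, 8.63, 21.4 and 29.1 RPM in the trough and 62.2, 30.2, 55.0 and 78.3 RPM near hatching, where the 25-26 h library lay within the trough range. The rise of FBgn0020445 was 0.15 ± 0.05 (limma, adjusted p = 0.014). It no longer passed without the 4-5 h library, where the adjusted p was 0.055.

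The time of the highest value and of the loss differed widely among the members. The highest value lay in the egg windows in 68 members, in those from 3 to 6 h in 69 and in those from 6 to 10 h in 8. It lay near hatching in 5, namely FBgn0032354, FBgn0050118, FBgn0024558, FBgn0031148 and FBgn0030000. For 28 members some library at 3-19 h was at least 2 times the egg mean, where 40.5% of the 5964 genes past the minimum did so. A lasting fall, meaning that all later libraries up to 24 h were under 50% of the egg mean, began in 53 members in a window starting at 3-8 h and in 49 in one starting at 9-14 h. In 34 it began at 15-18 h, and in the trough itself in 12. In FBgn0011656 and FBgn0030000 no such fall occurred before 24 h. The median start was at 12 h. The lowest value after the egg fell in the 22-23 h library in 37 members, followed by 28 members in the library before it and 23 in the one after. The first windows of the trough, 19-20 h and 20-21 h, held 15 each. The others were lowest before 19 h, among them 8 at 7-8 h and 9 at 17-18 h. The choice required the trough windows to be low, and the libraries from 19 to 23 h held only 511794 to 1075806 gene reads each. The windows of the highest value, the lasting fall and the lowest value were not counted over all genes. These counts are therefore descriptions of the members only.

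**Figure D4:**
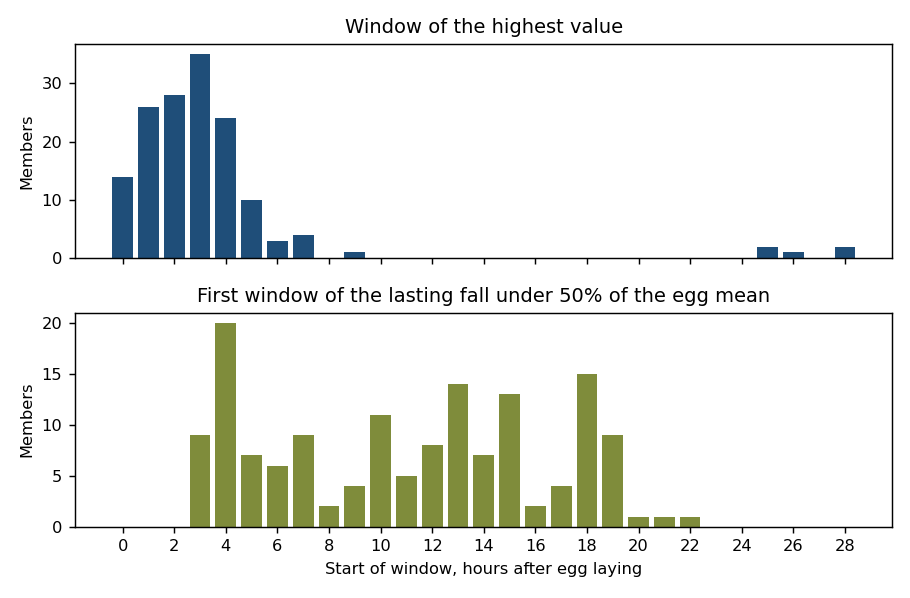
Number of members by the start of the 1-hour window that held their highest value (top) and by the start of the first window from which all libraries up to 24 h stayed under 50% of the egg mean (bottom). Highest values clustered at 0-6 h with 5 members at 24-29 h, and lasting falls were spread from 3-4 h to 22-23 h, with 20 members at 4-5 h and 15 at 18-19 h.

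Promoter positions could be read for 141 of the 150 members, whose gene reads were matched to the TSC table library by library (111 exactly, 30 with at least 90% of their reads, 9 not matched). The question was whether the egg RNA and the late RNA came from the same start sites. In 139 of the 141 the same TSC led in eggs and near hatching, 98.6%, beside 96.1% of 3438 other genes with egg and near-hatching means of at least 10 RPM. A different TSC led in FBgn0030208 and FBgn0038476. For 57 members a single TSC was known (40.4%, and 41.6% of those other genes), so no other promoter could have led. These shares are descriptions over genes, with no test.

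Shifts in the balance between promoters were tested in the genes with at least 2 TSCs of at least 5 RPM, by limma's diffSplice test of the 3 egg against the 4 near-hatching libraries, adjusted by the Benjamini-Hochberg method. Of the 42 members tested, 9 passed, a smaller share than the 41.2% of all 879 genes that did. By edgeR 13 of the 42 passed, beside 362 of the 879. The difference between members and all genes was not tested. The libraries of each side are different hours rather than replicates, so their spread includes change within the phase. In 8 of the 9 the leading promoter was the same on both sides. Over all 9, the size of the change in the share of the leading egg promoter had a median of 21.3 percentage points. It was 3.89 in the 33 that did not pass. The sizes overlapped, since FBgn0010382 passed with a change of -3.38 points and FBgn0026427 did not pass with -25.5 points.

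**Figure D5:**
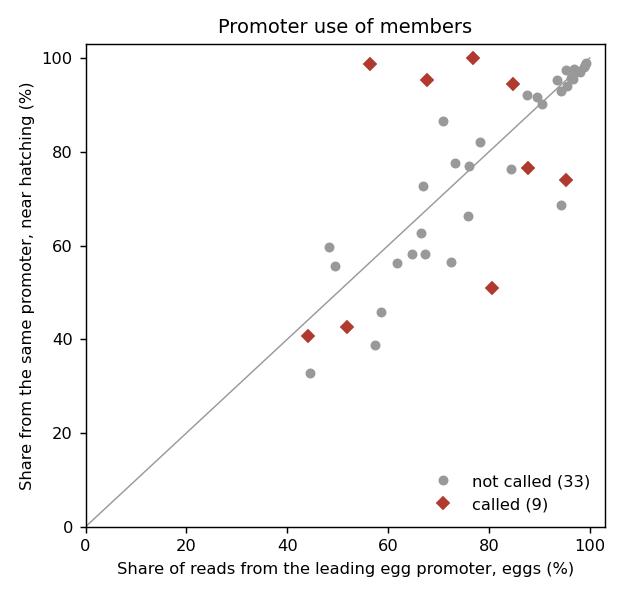
Share of a member's reads that came from its leading egg promoter, in eggs (horizontal axis, %) and near hatching (vertical axis, %), for the 42 members with at least 2 promoters tested. Red diamonds mark the 9 that passed, among them FBgn0027579 at 56.4 and 98.7%, while the 33 others (grey circles) had a median change of 3.89 percentage points.

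FBgn0027579 had the smallest p of these (limma diffSplice, adjusted p = 1.6e-07). In eggs its reads came from 3 promoters on the minus strand of chromosome 2, at 8337607 to 8337927, 8337161 to 8337257 and 8334201 to 8334276, with means of 41.4, 13.0 and 19.1 RPM. Near hatching the means were 54.7, 0.286 and 0.417 RPM. The first rose from 56.4 to 98.7% of the reads, and the other promoters were close to silent in the trough as well, at 0.139 and 0.320 RPM. The mid-embryonic rise of this gene likewise came from the first promoter, which had 49.9 RPM at 11-12 h where each of the others had 2.91 RPM.

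FBgn0038476 was the 1 called member whose leading promoter differed (limma diffSplice, adjusted p = 2.4e-06). Its 3 tested promoters lay on the plus strand of chromosome 2. The promoter at 16505914 to 16505943 went from 60.5 RPM in eggs to 15.8 RPM near hatching. The one at 16508065 to 16508095 had 25.7 RPM in eggs, 607 RPM at 3-4 h and no read in any trough or near-hatching library. The broad one at 16509564 to 16509933 (370 bp) had 29.7 RPM in eggs, 2.99 RPM in the trough and 21.2 RPM near hatching, with values of 9.15, 27.6, 18.6 and 29.3 RPM in the 4 late libraries. This last promoter carried most of the late return, since the first had 11.4, 16.6, 16.1 and 19.2 RPM there and 10.3 RPM on average in the trough.

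FBgn0031062 lost the dominance of its egg promoter, which still led near hatching only by a narrow margin of the means. On the plus strand of scaffold XL_group1e, the promoter at 956885 to 956959 went from 89.1 to 18.4 RPM and the one at 959611 to 959679 from 21.5 to 17.7 RPM, so the share of the first went from 80.5 to 50.9% (limma diffSplice, adjusted p = 0.0015). In the 4 late libraries the first had 14.5, 30.4, 17.5 and 11.3 RPM and the downstream one 12.6, 19.3, 15.4 and 23.7 RPM. The downstream promoter was thus ahead at 28-29 h. At 6-10 h it was about as active as in eggs, with 21.7, 23.3, 28.8 and 26.4 RPM.

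The leading promoters of the members had a median width of 122 bp (quartiles 99 and 180 bp). The median was 102 bp over the 4995 other linked genes past the minimum that had reads both in eggs and near hatching, 109 bp over those with egg and near-hatching means of at least 10 RPM, and 117 bp over those that reached 100 RPM, so the gap to the members narrowed from 20 to 5 bp as better expressed genes were compared. Members lay on all large chromosome arms, with 22 on chromosome 2, 30 on chromosome 3, 29 on chromosome 4, 31 on XL and 27 on XR, and 2 were unplaced. Chromosome 2 held 15.6% of the members and 24.1% of the other genes, and XL 22.0 and 16.0%. A promoter of another gene in divergent orientation lay within 500 bp of 23 members (16.3%, beside 14.7% of the other linked genes), and in 1 pair, FBgn0003023 and FBgn0053181, both genes were members. Genes are not replicates and no test was made of these shares.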

How the data were processed

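Whole staged embryos were profiled by RAMPAGE in 29 libraries, barcoded at reverse transcription and pooled into 1 sequencing library, so misassigned barcodes can act on all windows. The authors aligned reads with STAR (version not given in the sources used here) to the FlyBase r2.9 genome, called TSCs on the pooled series, which gives deep windows more weight, removed TSCs over ribosomal DNA and deposited values in RPM for 26066 TSCs and 8466 genes. The deposited z-score table and TSC intervals' scores were not used as measurements. Positions come from the deposited intervals.

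Whole reads were recovered from the RPM steps. Of the nonzero values, 100% were within 0.1 of a whole number. Except at 27-28 h, 1 read in the gene table was worth 0.0833 to 1.37 RPM. Counting intervals and limits cover counting error only, since no molecular identifiers are in the tables. A gene was linked to the TSC gene whose summed reads equalled its own in all libraries, or that held at least 90% of them (at least 100 reads) and never exceeded them.

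Slopes were fitted with limma 3.58.1 (R 4.3.3) on log2(RPM + 1), with the trend option, for genes reaching 1 RPM, with Benjamini-Hochberg adjustment, threshold 0.05. This scale understates the change of low genes. On recovered reads edgeR 4.0.16 and DESeq2 1.42.0 were alternatives. The fits were tested on simulated data. The members and lists were chosen with earlier results of these data known. Named members are drawn from those with the highest score, egg or near-hatching level, at the score limit, or with the smallest p, and from groups of 5 or fewer named after their values were seen. Lists of named marker genes were prepared but could not be applied, because identifiers are not paired with names. No sequence is printed, as no genome of this build was used.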

Additional observations from a re-analysis of the deposited data

Results flagged for a closer look

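For the members given with their values and for 3 summaries over genes (the median level and read share of the members, and the median level of the comparison genes), the trough and near-hatching libraries were searched for a library far from the rest of its group. Of 26 groups 2 had one, and chance gives about 1 in 20. FBgn0011656 had 39.1 RPM at 28-29 h, whereas the other near-hatching libraries lay between 78.7 and 82.8 RPM, and the gap was 0.906 of the range. FBgn0032354 had 33.4 RPM at 21-22 h, against a median of 20.5 RPM over the trough libraries, and the gap was 0.726 of the range. The 27-28 h library was listed because the choice and the fits left it out, and members held 1.76% of its gene reads. No explanation of these values was tested.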

How the results depend on the processing

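Every window had 1 library, so hour-to-hour differences had no replicate check, and p-values measure scatter around a line or within a phase. The list depended on the constant in the score: 88 of the 150 members were kept with a constant of 10 RPM, and between 117 and 142 under the other constants, minimums, averages and scalings. With 1 library left out, 122 to 149 were kept. Members that fell at 3-19 h numbered 82 to 119 under all other fits and scalings (119 in edgeR, 110 in DESeq2), 95 to 113 with 1 library left out, and 106 with the identical profiles counted once, an alternative chosen after seeing the data, as was leaving out single libraries of these 16. Members that rose numbered 3 or 4, and 2 or 3 with 1 library left out. All genes called numbered 4373 to 4754 in that series. Changed promoter use was called in 742 of 1892 genes with TSCs of at least 1 RPM and in 152 of 331 at 20 RPM, in place of 362 of 879. Among members it was called in 13 of 64 and 5 of 18, in 13 of 42 by edgeR, and in 8 to 13 with 1 library left out, when 321 to 362 genes passed. The median log2 ratio of near-hatching to trough level lay between 1.53 and 1.74 with 1 library left out. The members' share at 27-28 h was 1.38% without the member with most reads and also over the TSC table. Slopes of FBgn0033757 passed in 3 alternatives and those of FBgn0016070 in 3. No paired analysis was possible because each window had 1 library, so the windows share no more than the replicate number 1.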
